A study of Homo sapiens with 6 samples.

Results

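MHC class I antigen presentation was followed here through 9 genes, HLA-B, HLA-C, HLA-E, B2M, TAP1, TAP2, TAPBP, PSMB8 and PSMB9. They were taken from a list of names and matched to the gene names of the count tables. The rule uses no count or threshold, but the list was drawn up with earlier results of these data known. All 9 had a row among the 32029 genes listed, and 8 of them were among the 14996 genes with enough reads to be tested. PSMB9 was not, and is given by its reads. The cells were SW480, an established human line from a colorectal adenocarcinoma, labelled WT in genotype. In both groups the cells were transfected with an siRNA, and total RNA was taken 48 h later. Of the 6 cultures, 3 received a control siRNA, named siNC on the labels and siControl here, and 3 received an siRNA against ZEB1 (siZEB1). ZEB1 is a zinc finger repressor that drives epithelial-to-mesenchymal transition, and the study asked what its loss does to the transcriptome of these cells.

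Class I molecules display peptides from inside the cell to CD8+ T cells and natural killer cells. Proteins are cut by the proteasome, the peptides are pumped into the endoplasmic reticulum by the TAP1-TAP2 transporter, and chaperones load them onto a heavy chain paired with the light chain B2M, which then travels to the cell surface. Interferon raises most of the genes involved through factors such as IRF1, NLRC5 is the transactivator devoted to class I promoters, and tumour cells that lower these genes are less visible to T cells.

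Each culture had between 19040636 and 22357633 counted reads. Levels are CPM, reads scaled to a library of fixed size after TMM scaling (edgeR's correction for library composition), as the mean ± SD over 3 cultures. Fold changes are log2 of siZEB1 over siControl with their standard error (SE). A gene was called when its p from edgeR's quasi-likelihood test, two-sided and adjusted by Benjamini-Hochberg over the 14996 genes tested, was under 0.05. The spread between replicates was small (biological coefficient of variation 6.58%), the TMM factors lay between 0.989 and 1.01, and counts of replicates varied 2.18 to 8.58 times as much as sampling alone would give (chi-square over degrees of freedom), so none was a copy of another. ZEB1 itself went from 54.2 ± 6.23 CPM with siControl (cultures from 47.0 to 58.6 CPM) to 7.50 ± 0.841 CPM with siZEB1 (6.85 to 8.45 CPM) (log2 fold change -2.85, adjusted p = 4.85e-12). The epithelial keratins KRT8 and KRT18 were not called, EPCAM, KRT19 and VIL1 rose and CDX2 fell, and the 6 epithelial markers summed to 4806 to 5429 CPM in the siControl cultures and to 5320 to 5992 CPM in the siZEB1 cultures. Of 11 markers of immune, endothelial and stromal cells, PTPRC, MS4A1 and DCN had no row, 0 of the 4 tested were called by edgeR, at an unadjusted p under 0.05 or by DESeq2, and the list summed to 12.3 to 13.9 CPM with siControl and 10.6 to 12.8 CPM with siZEB1.

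Those class I genes that passed the test all fell, and by small amounts. Of the 8 tested, 5 fell with siZEB1 (HLA-B, HLA-C, HLA-E, TAP1 and TAP2) and 0 rose, by edgeR, by an unadjusted p under 0.05 and by DESeq2 alike. The number called was 2 (TAP1 and TAP2) without the third siZEB1 culture or with the replicate number as a block. It was 0 where a change above 1.5-fold was required with an unadjusted p under 0.05 or under 0.001. Those are the limits the study gives for its differentially expressed genes, applied here to the edgeR fit. Over all genes tested, 40.2% were called, 21.2% as lower and 19% as higher, so calls were common in this comparison. The 8 fold changes were all negative, from -0.50 to -0.04 with a median of -0.25, whereas the median over all genes was -0.0055 and the median size of change, either way, was 0.25. For 6 of the 8 members the siZEB1 cultures did not overlap the siControl cultures, against 49.5% of all genes. Among the 5 called, the mean fell by 13.1% for HLA-E at the least and by 28.5% for TAP2 at the most.

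**Figure D1:**
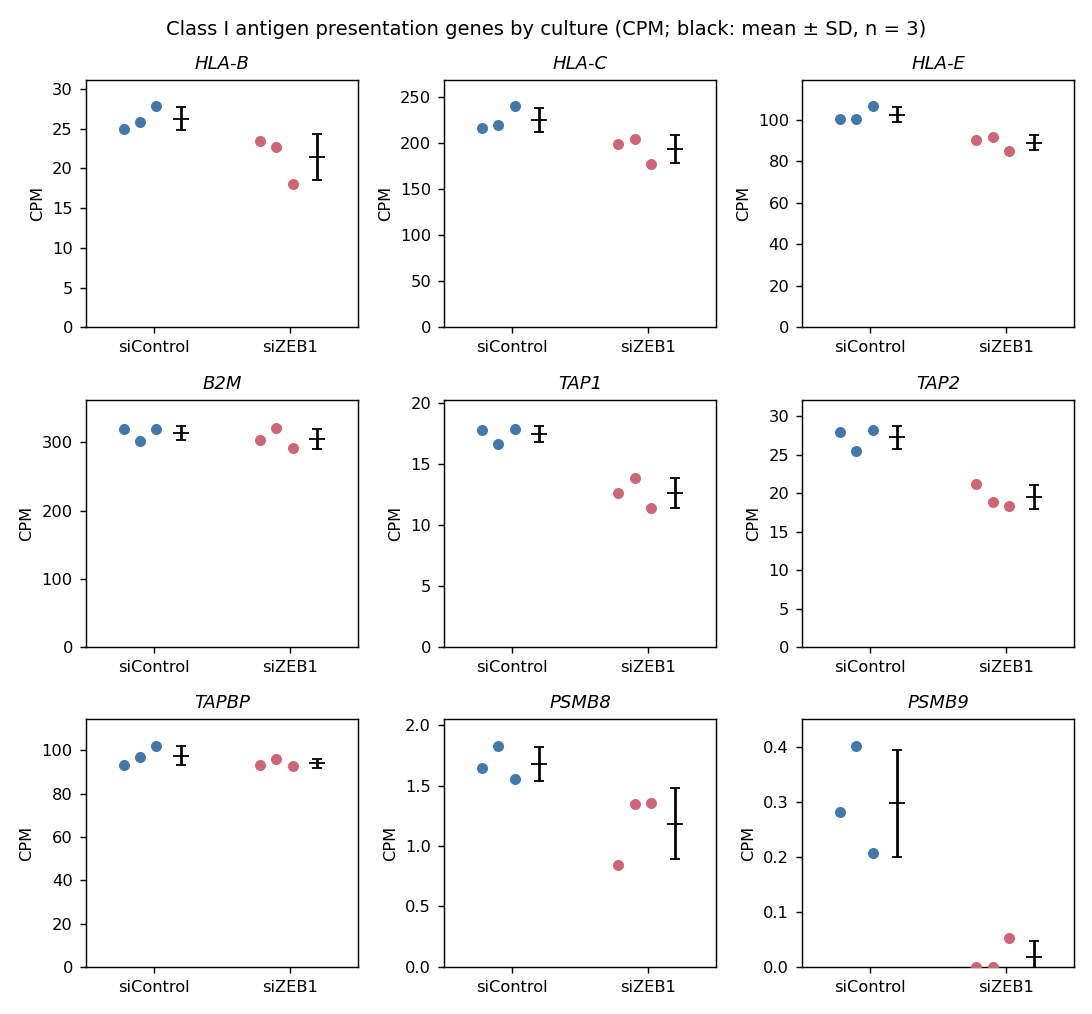
Levels of the 9 class I genes in each culture, in CPM on a linear axis from 0, with siControl in blue, siZEB1 in red and the mean ± SD of 3 cultures in black. The siZEB1 points of HLA-B, HLA-C, HLA-E, TAP1, TAP2, PSMB8 and PSMB9 lie below all siControl points, those of B2M and TAPBP overlap them, and the lower end of the siZEB1 bar of PSMB9 would lie below 0.

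The bases just upstream of the start sites show what the promoters of these genes share. RefSeq promoters (GRCh38.p14) were found for 8 of the 9 genes, all but HLA-E, and the 250 bases before each start were searched on both strands for short letter patterns. The core of the interferon response element, GAAANNGAA, was present in 4 of the 8 (B2M, TAP1, TAP2 and TAPBP), and in 6.88% of all 35116 promoters of the same length. In B2M, TAP1 and TAPBP it matched in 2 overlapping copies. The windows of these 4 genes are printed below, 150 bases each, 5′ to 3′ on the gene's own strand and ending at the base before the start, with the matches to all patterns searched in capitals. They lie at chr6:32853705-32853854, strand - for TAP1, chr6:32838740-32838889, strand - for TAP2, chr15:44711367-44711516, strand + for B2M and chr6:33314079-33314228, strand - for TAPBP.
TAP1: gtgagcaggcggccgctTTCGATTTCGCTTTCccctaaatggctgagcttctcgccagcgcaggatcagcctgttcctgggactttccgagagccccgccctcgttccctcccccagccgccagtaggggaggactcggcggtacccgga
TAP2: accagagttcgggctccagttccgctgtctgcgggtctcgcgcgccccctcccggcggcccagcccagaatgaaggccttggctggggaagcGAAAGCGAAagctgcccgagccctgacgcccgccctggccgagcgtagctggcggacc
B2M: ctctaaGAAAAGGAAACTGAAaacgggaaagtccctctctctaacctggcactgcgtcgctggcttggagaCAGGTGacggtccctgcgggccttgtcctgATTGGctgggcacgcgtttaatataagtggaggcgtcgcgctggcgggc
TAPBP: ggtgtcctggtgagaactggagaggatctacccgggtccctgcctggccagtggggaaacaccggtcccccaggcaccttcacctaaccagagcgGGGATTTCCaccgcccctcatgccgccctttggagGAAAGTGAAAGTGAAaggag

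In TAP1 the overlapping matches on the reverse strand span 133 to 119 bases before the start, and in TAP2 a single match spans 58 to 50 bases before it. In B2M the matches span 144 to 130 bases, and in TAPBP 20 to 6 bases before the start. B2M also carries, 79 to 74 bases before the start, the E-box CACCTG (read CAGGTG on its own strand), a sequence that the zinc fingers of ZEB1 bind. That exact E-box was found in 17.5% of all promoters and, among the members, in B2M and PSMB8 alone. Strings that differ from it in the last base, such as cacctt and caccta in the TAPBP window, were not counted. The kappaB-type core GGGNNTTCC was found in 5.78% of all promoters and in HLA-B and TAPBP, 55 to 47 bases before the start in the latter. This pattern allows a single spacing. A similar string that is a base longer, gggactttcc, lies in the TAP1 window and, on the reverse strand, in the B2M window, and was not counted. Of the 4 genes with the interferon response core, TAP1 and TAP2 fell, and B2M and TAPBP were not called. A match is a string of letters and not a measured binding site.

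The promoters of HLA-B, HLA-C and PSMB8 held no exact match to the interferon response core. HLA-B and HLA-C do hold gagtttcacttct, a string similar to that core read on the reverse strand. The exact pattern does not match it, and the windows below cut through it. The CCAAT box, which binds NF-Y within the class I enhanceosome, was in 32% of all promoters and in 5 of the 8 members. The TAP1 and PSMB9 copies are the same bases read from either strand, since the stretches searched for these genes share 13 bases. HLA-B and HLA-C each hold a copy 56 to 52 bases before the start, and others further up. The windows below, capitalised as above, lie at chr6:31357180-31357329, strand - for HLA-B, chr6:31272093-31272242, strand - for HLA-C and chr6:32844680-32844829, strand - for PSMB8, whose E-box spans 146 to 141 bases before the start.
HLA-B: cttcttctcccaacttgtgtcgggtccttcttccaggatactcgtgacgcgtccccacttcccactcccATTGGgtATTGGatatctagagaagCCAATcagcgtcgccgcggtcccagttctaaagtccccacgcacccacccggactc
HLA-C: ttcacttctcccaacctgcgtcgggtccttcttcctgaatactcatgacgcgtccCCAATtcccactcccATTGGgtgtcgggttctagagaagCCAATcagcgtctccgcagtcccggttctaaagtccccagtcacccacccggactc
PSMB8: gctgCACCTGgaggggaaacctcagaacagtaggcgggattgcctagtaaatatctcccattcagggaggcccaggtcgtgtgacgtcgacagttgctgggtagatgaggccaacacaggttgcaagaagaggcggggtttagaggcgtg

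The 3 heavy chains each fell by 18.3% or less of the siControl mean, and HLA-C carried most of their reads. HLA-C (GRCh38 chromosome 6, as for all but B2M, 31268749 to 31272130, minus strand), a classical heavy chain that presents to T cells and is a main ligand of natural killer cell receptors, was counted 4610, 4920 and 4637 times in siControl and 3776, 3949 and 3391 times in siZEB1 cultures. This is 225 ± 12.9 CPM against 194 ± 15 CPM. Every siZEB1 culture was below every siControl culture, and the difference was -0.22 on the log2 scale (95% interval -0.35 to -0.09, SE 0.067, adjusted p = 0.0156).

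HLA-B (31269491 to 31357188, minus strand), the most polymorphic classical heavy chain, gave 532, 580 and 537 reads under siControl against 444, 438 and 346 under siZEB1. The third siZEB1 culture was the lowest, at 18.1 CPM, with the others at 23.5 and 22.7 CPM and the siControl cultures at 25.0, 25.9 and 27.8 CPM. The group means were 26.2 ± 1.45 CPM and 21.4 ± 2.95 CPM, which differ by -0.29 on the log2 scale (adjusted p = 0.0262, SE 0.099). Exons of AL671883.2 on the opposite strand cover 17.8% of the exonic bases of HLA-B, and exons of HLA-C on the same strand cover 1.15%. Whether counting used the strand is not given in the sources used here. HLA-E (30489467 to 30494205, plus strand), a non-classical heavy chain that shows leader peptides of other class I chains to the NKG2A receptor, gave 2137, 2250 and 2057 reads under siControl against 1709, 1768 and 1625 under siZEB1. It went from 102 ± 3.58 CPM to 89.0 ± 3.72 CPM without overlap (log2 fold change -0.20, SE 0.064, adjusted p = 0.0183).

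These 3 calls were close to the threshold. Without the third siZEB1 culture, which was the lowest siZEB1 culture for 7 of the 8 tested members, none of the 3 passed it, with adjusted p of 0.145 for HLA-B, 0.0781 for HLA-C and 0.0747 for HLA-E. HLA-B also missed it without the second siControl culture (adjusted p = 0.0582), and HLA-E without the first siZEB1 culture (adjusted p = 0.0557). Heavy chain genes resemble each other: of the 50-base words in their annotated transcripts, 2.72% for HLA-B, 5.38% for HLA-C and 4.34% for HLA-E also occur in another gene, and how reads that match several genes were counted is not given in the sources used here. The alleles of this line were not analysed here, and how well its reads match the reference alleles was not tested.

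The balance among the heavy chains was also measured. Per kilobase of transcript, HLA-C made up 72.2 ± 0.327% of the sum of the 3 chains with siControl and 72.4 ± 0.293% with siZEB1 (two-sided exact permutation test, p = 0.5, n = 3 a group). HLA-E made up 19.4 ± 0.351% and 19.7 ± 0.676% (exact permutation p = 0.7), and HLA-B 8.35 ± 0.0926% and 7.92 ± 0.564% (exact permutation p = 0.3). With 3 cultures against 3 this test cannot go below 0.1, and these shares did not reach that value.

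B2M, the light chain that every heavy chain needs to reach the surface, was not called. B2M (chromosome 15, 44711487 to 44718877, plus strand) gave 6813, 6787 and 6168 reads under siControl against 5745, 6181 and 5587 under siZEB1, which after scaling is 314 ± 9.87 CPM and 305 ± 14.8 CPM. The groups overlapped, and the log2 fold change was -0.04 (95% interval -0.15 to 0.07, adjusted p = 0.61, SE 0.057). Set against the 3 heavy chains per kilobase, B2M stood at 1.51, 1.41 and 1.37 times their sum in the siControl cultures and at 1.56, 1.62 and 1.69 times in the siZEB1 cultures. The means were 1.43 ± 0.072 and 1.62 ± 0.0648, with no overlap (exact permutation p = 0.1, the smallest that 3 against 3 allows).

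The transporter subunits had the lowest adjusted p of the members. TAP1 (32845209 to 32853978, minus strand) and TAP2 (32821833 to 32838780, minus strand) are the paired subunits of the ATP-driven pump that brings peptides into the endoplasmic reticulum, and neither works without the other. TAP1 was read 379, 374 and 345 times under siControl but 239, 267 and 219 times under siZEB1. TAP2 was read 596, 573 and 545 times under siControl but 402, 363 and 352 times under siZEB1. For both genes the highest siZEB1 culture was well below the lowest siControl culture.

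TAP1 went from 17.4 ± 0.669 CPM to 12.6 ± 1.22 CPM, so the mean fell by 27.5%, or a change of -0.46 on the log2 scale (95% interval -0.66 to -0.27, SE 0.098, adjusted p = 0.0011). TAP2 went from 27.3 ± 1.48 CPM to 19.5 ± 1.55 CPM, so the mean fell by 28.5%, or a change of -0.48 on the log2 scale (95% interval -0.65 to -0.31, SE 0.087, adjusted p = 0.00029). Both calls held in each of 12 alternative fits judged by adjusted p alone. The adjusted p lay between 0.000158 and 0.00703 for TAP1 and between 4.61e-06 and 0.00263 for TAP2. Neither gene passed where a change above 1.5-fold was required. Exons of another annotated gene, AL669918.1, cover 32.3% of the exonic bases of TAP2 on the same strand, that gene has no row in the tables, and reads from that stretch cannot be told apart.

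TAPBP (33299694 to 33314387, minus strand) encodes tapasin, the chaperone that bridges the transporter and the empty heavy chain and edits its peptide. Its reads numbered 1990, 2178 and 1971 under siControl and 1759, 1853 and 1776 under siZEB1. Its level was 97.5 ± 4.34 CPM and then 94.0 ± 1.96 CPM, the groups overlapped, and it was not called (log2 fold change -0.05, SE 0.063, adjusted p = 0.533, 95% interval -0.18 to 0.07).

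PSMB8 and PSMB9 are catalytic subunits of the immunoproteasome, which replace PSMB5 and PSMB6 of the constitutive proteasome and favour peptides that class I chains bind. Both were scarce in these cells. PSMB8 (32840717 to 32844703, minus strand) gave 35, 41 and 30 reads under siControl against 16, 26 and 26 under siZEB1, or 1.68 ± 0.14 CPM and 1.18 ± 0.293 CPM. The groups did not overlap, but with so few reads the log2 fold change of -0.50 had an SE of 0.27 and did not pass (adjusted p = 0.148, 95% interval -1.02 to 0.02). Exons on the opposite strand, of PSMB8-AS1 and PSMB9, cover 20.6% of its exonic bases, and whether counting used the strand is not given in the sources used here.

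PSMB9 (32844136 to 32859585, plus strand) gave 6, 9 and 4 reads under siControl against 0, 0 and 1 under siZEB1, below the filter on low counts. Pooled within groups this is 19 reads against 1. Scaled for depth, the siZEB1 level was 0.0579 times the siControl level (95% exact interval 0.00139 to 0.364, covering counting error only). Without the filter, over 32029 genes, PSMB9 was called by edgeR with an adjusted p of 0.00828. RefSeq places the starts of TAP1 and PSMB9 back to back on opposite strands, with 487 bases between them, so that a shared stretch lies upstream of both. The interferon response core of TAP1 lies in this stretch, beyond the 250 bases searched before the PSMB9 start.

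**Figure D2:**
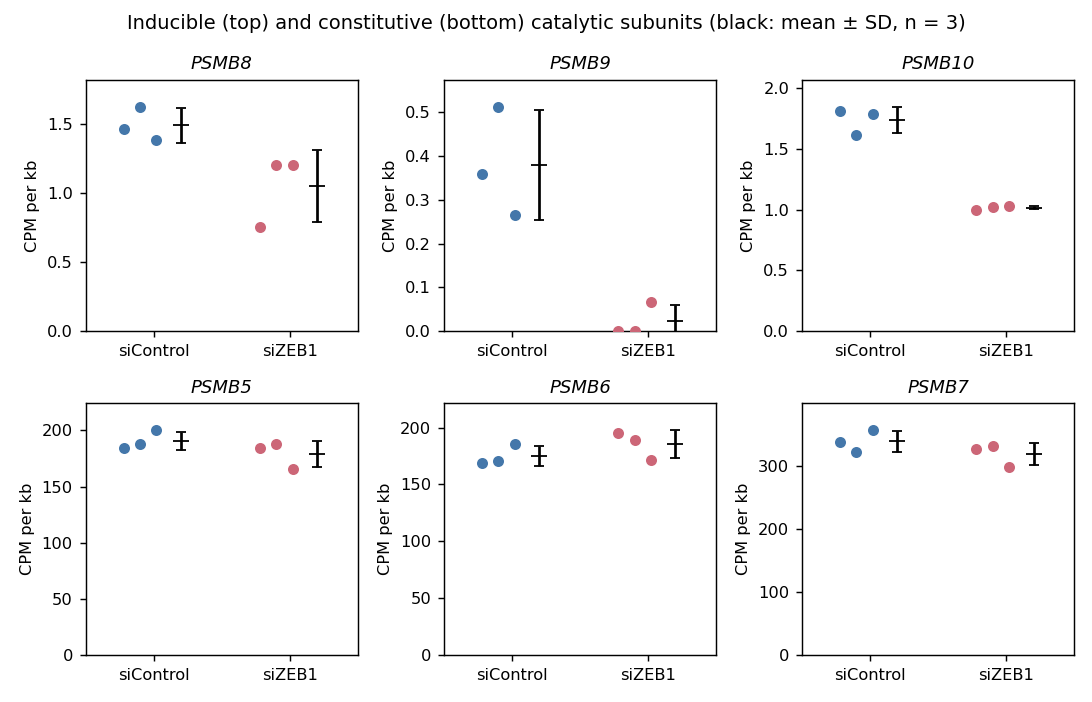
Levels per kilobase of transcript in each culture for the inducible catalytic subunits PSMB8, PSMB9 and PSMB10 (top) and the constitutive subunits PSMB5, PSMB6 and PSMB7 (bottom), with the mean ± SD of 3 cultures in black and a separate linear axis from 0 in each panel. The siControl means at the top are 1.49, 0.379 and 1.74 CPM per kilobase, and those at the bottom are 191, 175 and 339 CPM per kilobase.

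PSMB10, the third inducible catalytic subunit and not among the 9 genes, fell from 2.11 ± 0.133 CPM to 1.24 ± 0.0191 CPM (log2 fold change -0.77, adjusted p = 0.0132), on 47, 44 and 42 reads under siControl against 23, 24 and 24 under siZEB1. Exons of AC040162.1 on the same strand cover 34.8% of its exonic bases. The constitutive partners PSMB5, PSMB6 and PSMB7 were not called, with log2 fold changes of -0.09, 0.08 and -0.09. Summed per kilobase, the inducible subunits made up 0.511 ± 0.0449% of all 6 catalytic subunits with siControl and 0.307 ± 0.0568% with siZEB1, with no overlap (exact permutation p = 0.1). The share of PSMB8 within PSMB8 plus PSMB5 was 0.777 ± 0.0864% and 0.588 ± 0.163% and overlapped (exact permutation p = 0.2). By message, the inducible subunits were a minor part of the catalytic subunits in both groups. Of the activator subunits that open the proteasome, PSME1 fell (log2 fold change -0.47, adjusted p = 0.00042) and PSME2 was not called (-0.09, adjusted p = 0.335).

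The members spanned a wide range of levels, in a fixed order. Per kilobase, B2M stood highest at 290 ± 9.13 CPM per kilobase with siControl, followed by HLA-C at 147 ± 8.42, TAPBP at 51.7 ± 2.30, HLA-E at 39.4 ± 1.38, HLA-B at 16.9 ± 0.937, TAP2 at 10.9 ± 0.594, TAP1 at 5.90 ± 0.226, PSMB8 at 1.49 ± 0.124 and PSMB9 at 0.379 ± 0.125 CPM per kilobase. With siZEB1 the order was the same, and neighbours differed by more than their SDs in both groups. By message per kilobase, the transporter subunits were scarcer than the classical chains HLA-B and HLA-C, and protein was not measured. In these bulk samples, fewer cells that express a gene and less RNA per cell cannot be told apart.

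The other genes of the pathway moved both ways. From 6 lists of 69 further class I genes, 63 were tested and 31 called, 12 higher and 19 lower, and the median of the tested genes was -0.07 on the log2 scale. By step, the calls were 5 of 10 among other heavy chains and class I-like ligands (2 higher, 3 lower), 6 of 8 in peptide loading (3 higher, 3 lower), 2 of 7 in the proteasome (both lower), 3 of 7 among peptidases (1 higher, 2 lower), 13 of 24 among regulators (5 higher, 8 lower) and 2 of 7 in surface turnover (1 higher, 1 lower). The background of 40.2% called applies to each of these counts.

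**Figure D3:**
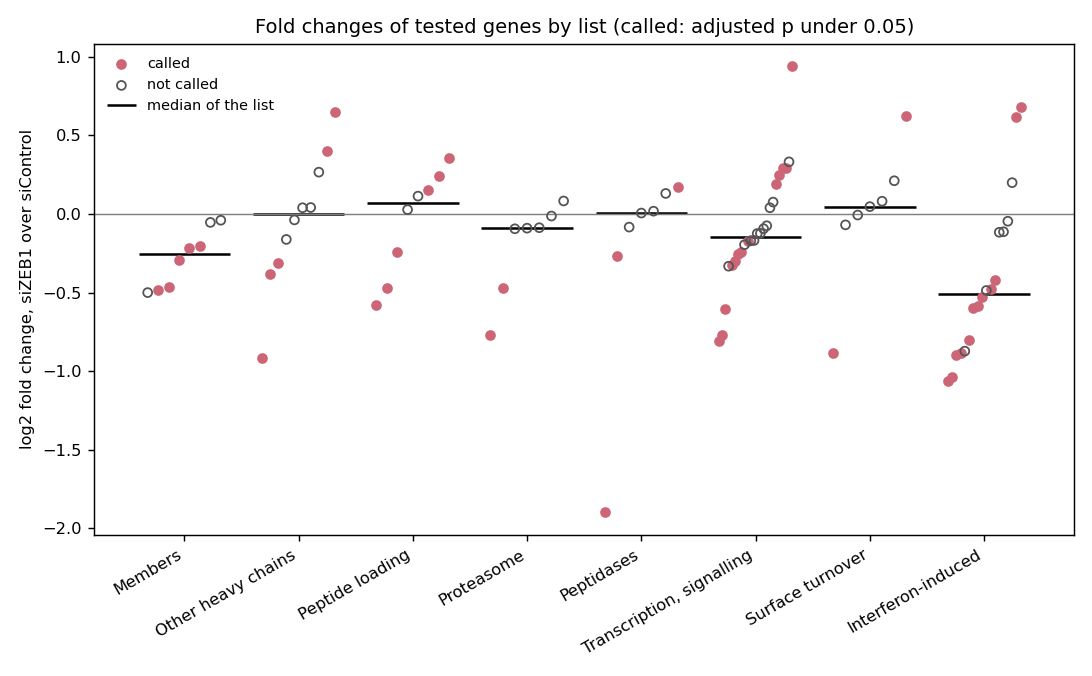
Log2 fold change of siZEB1 over siControl for each tested gene of the 9 class I genes (Members), of 6 lists of other pathway genes and of a list of interferon-induced genes, with called genes filled, others open and the median of each list as a black bar. The 8 members lie between -0.50 and -0.04, LAP3 stands lowest among the peptidases, and the interferon-induced genes have the lowest median.

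Among the class I-like chains, HLA-F, a non-classical chain, was near the floor with 10 to 17 reads a culture and was not called (adjusted p = 0.945). Of the 6 tested stress-induced ligands of the activating receptor NKG2D, 2 rose, 2 fell, and MICA and ULBP1 were not called. MICB rose from 59.9 ± 4.75 CPM to 94.0 ± 2.47 CPM (log2 fold change 0.65, adjusted p = 1.48e-06) and ULBP2 rose (0.40, adjusted p = 0.0117), whereas RAET1E (-0.91, adjusted p = 0.00047) and ULBP3 (-0.38, adjusted p = 0.00093) fell.

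In the loading complex, the general chaperones went the opposite way to the transporter. Calnexin (CANX), which folds new heavy chains, rose by 0.36 on the log2 scale (adjusted p = 7.77e-05). PDIA3, the oxidoreductase bound to tapasin, rose by 0.24 (adjusted p = 0.0017), and calreticulin (CALR), which holds the chain in the complex, rose by 0.15 (adjusted p = 0.0299). UGGT1, the glucosyltransferase that returns poorly loaded chains for another round, fell (-0.47, adjusted p = 5.13e-05). The aminopeptidases that trim peptides in the endoplasmic reticulum fell as well, with log2 values of -0.24 for ERAP1 (adjusted p = 0.0472) and -0.58 for ERAP2 (adjusted p = 0.0052). TAPBPL, a second peptide editor akin to tapasin, was not called (adjusted p = 0.921).

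Among peptidases of the cytosol, LAP3, an interferon-inducible leucine aminopeptidase, fell furthest, from 75.0 ± 3.13 CPM to 20.1 ± 1.01 CPM (log2 fold change -1.90, adjusted p = 6.63e-12). TPP2, which cuts long peptides, fell (-0.27, adjusted p = 0.0111), and NPEPPS, an aminopeptidase, rose (0.17, adjusted p = 0.0393). In surface turnover, the ubiquitin ligase WWP2 rose (0.62, adjusted p = 1.28e-06).

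The regulators of class I genes moved both ways. IRF1, the interferon-induced activator that binds the interferon response element, gave 447, 498 and 464 reads under siControl against 279, 245 and 230 under siZEB1. Its level fell from 22.4 ± 1.53 CPM to 13.2 ± 1.43 CPM (log2 fold change -0.77, adjusted p = 9.8e-06).

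NLRC5 went up instead. Its reads were few, 24, 23 and 21 under siControl against 37, 47 and 35 under siZEB1, yet the groups did not overlap. The level went from 1.08 ± 0.0512 CPM to 2.07 ± 0.324 CPM (log2 fold change 0.94, adjusted p = 0.0059). Of the RFX complex through which NLRC5 reaches the promoters, RFXANK fell (-0.60, adjusted p = 4.7e-05) and RFX5 fell with overlapping groups (-0.24, adjusted p = 0.0408), and RFXAP rose (0.29, adjusted p = 0.0408). SOCS3, an inhibitor of cytokine signalling, fell (-0.81, adjusted p = 0.0006).

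**Figure D4:**
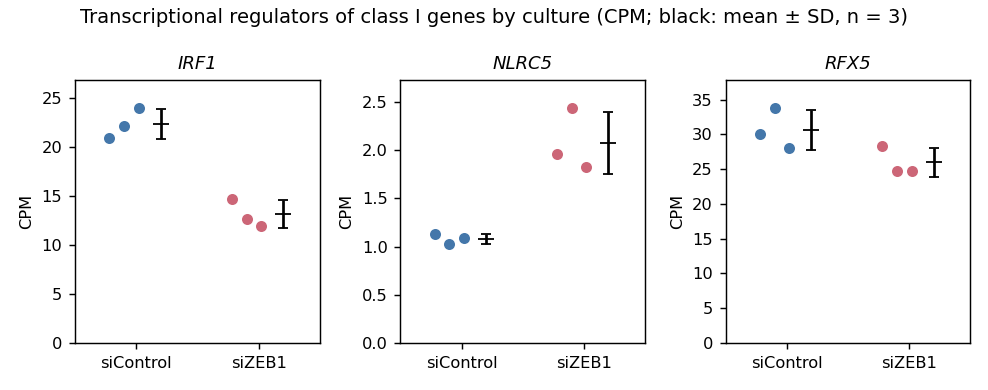
Levels in CPM of IRF1, NLRC5 and RFX5 in each culture, with the mean ± SD of 3 cultures in black and a linear axis from 0. IRF1 is lower and NLRC5 is higher in all siZEB1 cultures, while the groups of RFX5 overlap.

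Other interferon-induced genes, none of them among the members or the pathway lists, were mostly lower too. Of 30 such genes, 18 were tested and 12 called, 10 of them lower and 2 higher. Of all genes tested, 40.2% were called, 21.2% as lower. The median log2 fold change of the interferon-induced genes was -0.51 against -0.0055 over all genes. The interferon-induced list summed to 746 to 849 CPM in the siControl cultures and to 629 to 718 CPM in the siZEB1 cultures. IFITM3 made up most of these sums, at 451 ± 36.5 CPM and 437 ± 34.6 CPM, and was not called (adjusted p = 0.623). IFITM2 was the next largest and fell from 179 ± 13.7 CPM to 129 ± 11.5 CPM. IFI35 (-1.06, adjusted p = 0.0082), IFIT1 (-1.04, adjusted p = 0.0287) and DTX3L (-0.90, adjusted p = 1.37e-05) fell furthest, and IFI27 (0.68, adjusted p = 0.0479) and IRF7 (0.61, adjusted p = 0.0036) rose. Reads were few for IFI35 (12 to 37 a culture), IFIT1 (8 to 28) and IFI27 (20 to 58). The part of interferon signalling in the class I values was not tested. The class II pathway was low in both groups, with 0 of 5 tested genes called by edgeR, at an unadjusted p under 0.05 or by DESeq2, and a sum of 5.96 to 6.42 CPM with siControl and 5.39 to 6.75 CPM with siZEB1.

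Of the tested class I genes, 7 lie in the MHC on chromosome 6, among neighbours that moved both ways. In the stretch from HLA-F to TAPBP (29722775 to 33314387, bounds chosen after the values were seen), 105 other genes were tested, of which 25 were called higher and 10 lower, and the median on the log2 scale was 0.10. The 7 genes under study there had 0 higher, 5 lower and a median of -0.29. Of all genes tested in the series, 19% were called higher and 21.2% lower. Differences between these sets were not tested. MICB, which lies near HLA-B, was among those that rose.

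**Figure D5:**
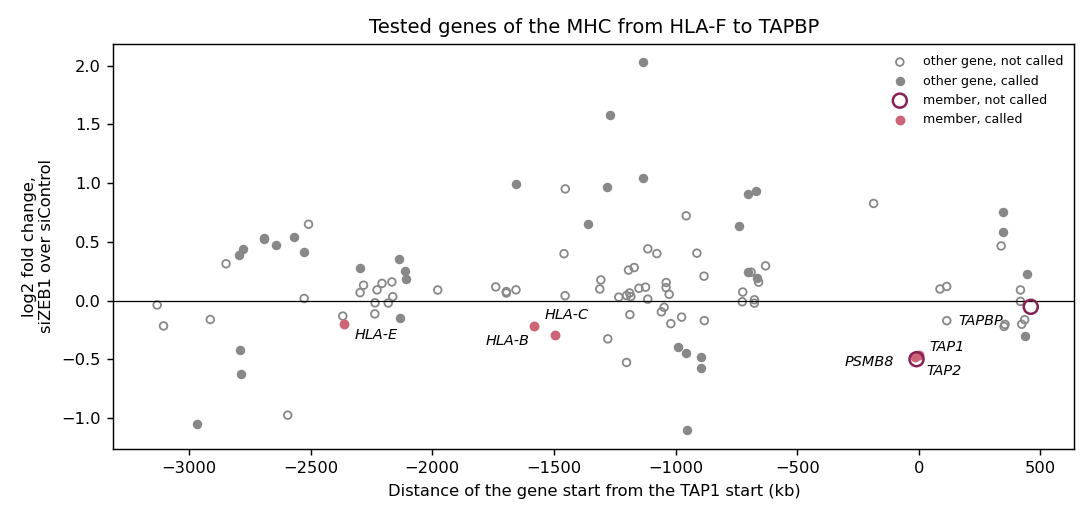
Log2 fold change of siZEB1 over siControl for each tested gene of the MHC from HLA-F to TAPBP, plotted by the distance of its start from that of TAP1 in kilobases, with called genes filled, others open, and the 7 genes under study coloured and named (PSMB8 is the open ring over TAP2). The 7 named genes lie below 0, and the 105 other genes lie on both sides.

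The likeness of other genes to TAP1 over the cultures was ranked as well. By Pearson's r of log2 CPM over the 6 cultures, among 13191 genes with a mean of at least 1 CPM, the genes most like TAP1 were HACD1 (0.998), RWDD2A (0.997), PRR7-AS1 (0.997), LMX1B (0.994) and HTRA2 (0.993). HLA-E ranked 158 (r = 0.971), TAP2 916 (0.93) and HLA-C 1096 (0.921), and B2M ranked 3717 (0.677). All 6 points share the split between groups, so these values describe that split as much as the spread within it.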

How the data were processed

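RNA-seq was performed on 6 SW480 cultures, 3 per group, which the study calls biological replicates. The authors deposited whole-number counts of reads per gene, not normalized. The submitters' processing notes name Trimmomatic, HISAT2, SAMtools and featureCounts with hg38; versions, read length, strand setting and the handling of shared reads are not given in the sources used here. From the counts, genes were kept by filterByExpr, scaled by TMM and compared without covariates by the quasi-likelihood test of edgeR 4.0.16 (R 4.3.3), two-sided, with Benjamini-Hochberg adjustment over all 14996 genes. DESeq2 1.42.0 and the other settings below were alternatives. SE is the fold change divided by the root of F, and intervals are 1.96 SE on each side. This multiple is that of a normal distribution and is smaller than the test's own, so the intervals are somewhat too narrow. Levels per kilobase use the median length of principal GENCODE 29 transcripts (GRCh38), which also gave coordinates. Shares were compared by exact permutation (scipy). The script was tested on simulated data. The labels hold 1 siRNA treatment per group, so loss of ZEB1 and other effects of that siRNA cannot be told apart. The members and lists were chosen with earlier results of these data known. Genes were named as members, their partners and known regulators, and up to 3 called genes of each list by size of change; for TAP1, the 5 genes with the nearest pattern. Some genes named by it are left out here. The MHC bounds were set, and KRT8, KRT18, CDX2, MICA, ULBP1, ULBP3, RFXANK, RFXAP, IFI27, IRF7 and the marker genes with no row were named, after the values were seen.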

Additional observations from a re-analysis of the deposited data

How the results depend on the processing

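The count of 5 members called, all lower, was also found by DESeq2 (Wald test), with scaling by median of ratios or by library totals alone, and with genes kept only at 10 or more counts in each culture. It was 6 without a filter, by the addition of PSMB9, and between 2 and 5 with a culture left out, the 2 (TAP1 and TAP2) being the count without siZEB1 replicate 3. The replicate numbers did not pair the cultures (correlations of same-numbered deviations -0.066, -0.121 and -0.306). With the number as a replicate block 2 members were called, TAP1 and TAP2, while HLA-B had an adjusted p of 0.052, HLA-C 0.0635 and HLA-E 0.0936, and the cause was not tested. When a change of more than 1.5-fold with unadjusted p under 0.05 was required, 0 members and 10 other pathway genes passed. With p under 0.001, 0 members, 8 other pathway genes and 3 interferon-induced genes passed. The study gives both of these p limits, with the same fold, for its differentially expressed genes. The changes of the tested members were below that fold, and PSMB9 was not tested in that fit. Over all 12 refits, HLA-B missed the threshold in 3 (adjusted p 0.0121 to 0.145), HLA-C in 2 (0.0045 to 0.0781) and HLA-E in 3 (0.0133 to 0.0936). TAP1 and TAP2 missed it in 0, and no fold change of a member changed sign. No other scaling moved the median of all genes by more than 0.014. Depth limits PSMB8 and PSMB9, on at most 41 and 9 reads a culture.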
